A study of Homo sapiens with 8 samples.

Results

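The Hedgehog pathway genes described here are PTCH1, GLI1, GLI2, GLI3, SMO, SUFU, HHIP, SHH and IHH, 9 of the 18132 genes that had a probe set with a single gene symbol on the arrays. They were found as every probe set annotated to exactly 1 of these symbols, which gave 31 of 49293 probe sets. Transcripts were measured on 8 Affymetrix PrimeView arrays in PANC1, a human pancreatic ductal cancer cell line that the study lists as carrying a heterozygous loss of BAP1, with 2 arrays in each of 4 groups. The groups were sgBAP1 + IR (cells given a CRISPR/Cas9 guide against BAP1 and 10 Gy of ionising radiation, with RNA taken 3 days later), IR (10 Gy and 3 days, without the BAP1 guide), sgBAP1 (the BAP1 guide, no radiation) and control (neither). BAP1 is a nuclear enzyme that takes ubiquitin off histone H2A. The sample labels give the cells without the BAP1 guide as wild type. The study's methods describe a non-targeting guide as the CRISPR control but do not assign it to these arrays. A figure legend of the study names non-treated cells as the control for its differentially expressed genes. A single BAP1 guide was used, so that an effect of BAP1 and an effect of that guide cannot be told apart. Guide cells were also transfected and selected with puromycin. If the other cells were untreated wild type, an effect of these steps cannot be told apart either. If they had the non-targeting guide, these steps were shared. BAP1 transcripts were not analysed here, and the labels were therefore not checked against the targeted gene.

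Values are log2 signals from robust multi-array average (RMA) normalisation and are comparable across arrays for 1 probe set, but not between probe sets. Each gene is described by its lead probe set, the one with the brightest mean signal over the 8 arrays. A probe set was called where its limma p, adjusted over all 49293 probe sets, was under 0.05 and its fold change was over 1.5, or 0.58 on the log2 scale. The 9 genes were selected on values of these same arrays, the log2 differences between the 4 groups, which had been seen before. Their differences are therefore given as a description with standard errors and without p-values, and nothing is read from how many of them were called.

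Hedgehog ligands bind the receptor PTCH1 and thereby relieve its inhibition of SMO, a membrane protein that signals from the primary cilium. Active SMO frees the GLI transcription factors from SUFU, which otherwise holds them in the cytoplasm and favours their conversion to repressors. PTCH1, HHIP and GLI1 are themselves transcribed in response to the pathway in many tissues, so their transcripts are widely used as its readout. In pancreatic cancer, ligand made by the epithelial cells is known to act mainly on the surrounding stroma, and GLI transcription in the cancer cells can also be driven by RAS and TGF-beta signalling without SMO.

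PTCH1 is the member with the largest range between group means, and the sequence around its start sites is shown because it is a direct GLI target. The RefSeq table of promoter windows, 250 bases before to 50 bases after an annotated start on GRCh38.p14, held 12 windows for 7 of the 9 genes and none was matched for GLI1 or GLI3. The motif searched was GACCACCCA, the GLI consensus, read on both strands. It was present in 83 of 35116 windows of all genes (0.236%), in 1 of the 12 windows of the members, which is 1 of the 5 PTCH1 windows, and in 0 of 66 windows of 38 other pathway genes. The PTCH1 window with the motif lies at chr9:95509217-95509516 on the minus strand, within the annotated PTCH1 gene. The motif is printed in capitals and reads as its reverse complement, 172 to 164 bases before that start.
PTCH1 promoter window: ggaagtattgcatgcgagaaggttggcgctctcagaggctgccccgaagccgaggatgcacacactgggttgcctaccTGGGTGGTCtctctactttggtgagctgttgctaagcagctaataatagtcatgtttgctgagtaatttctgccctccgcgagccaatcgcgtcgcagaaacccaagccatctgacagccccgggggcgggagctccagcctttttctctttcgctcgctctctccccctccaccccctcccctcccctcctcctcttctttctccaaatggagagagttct
A match is a description of these letters and says nothing of whether a GLI protein was bound there in PANC1 cells.

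Array medians lay between 6.12 and 6.15 log2 and lower quartiles between 4.30 and 4.39 log2. Arrays of a group correlated at 0.998 to 0.9985 over probe sets, against 0.9881 to 0.9952 for arrays of different groups. The epithelial keratins KRT8, KRT18 and KRT19 were above the upper quartile on all 8 arrays, and KRT7 was above the median on 6. Markers of fibroblasts, immune cells and endothelium were not above the median on both arrays of any group, and LUM, COL3A1 and PTPRC were below the lower quartile on all 8. Of 3 acinar markers, the protease PRSS1 was above the median on all 8 arrays, and CPA1 and CELA3A on 0. The summed keratin level was 14.76 log2 on both sgBAP1 + IR arrays and 14.80 and 14.81 on IR arrays. It was 14.46 and 14.47 on sgBAP1 arrays, and 14.27 and 14.29 on control arrays. This level was thus higher with irradiation. With the guide it was higher in cells without radiation and slightly lower in irradiated cells. The sum is weighted to the brightest probe sets, KRT18 and KRT8, and the keratins did not all move alike. In irradiated cells KRT18 and KRT8 were lower with the guide, while KRT7 and KRT19 were higher. KRT7 read 7.38 and 7.50 log2 on sgBAP1 + IR arrays and 6.62 and 6.74 on IR arrays. The part of keratin levels in the differences below was not tested.

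Across the pathway, 3 patterns were seen. PTCH1 and GLI1 were lower on all 4 arrays with the BAP1 guide than on the 4 arrays without it, irradiated or not, by 1.21 to 1.24 log2 for PTCH1 and 0.61 to 0.98 log2 for GLI1. GLI3 was higher on all 4 irradiated arrays than on the 4 arrays without radiation, by 0.96 to 1.09 log2. The lead GLI2 probe set showed the same order with smaller differences of 0.31 to 0.38 log2, while only 4 of the 9 GLI2 probe sets were higher in IR than in control. The lead SMO probe set was lowest where both were applied, at 0.75 ± 0.12 log2 below control. The second SMO probe set had its lowest mean with the guide alone. The lead probe sets of SHH, IHH, HHIP and SUFU spanned no more than 0.17 log2 between group means. Another SUFU probe set spanned more, with means from 5.68 log2 in sgBAP1 to 6.14 log2 in IR. In these bulk samples, fewer cells of a kind and less RNA per cell cannot be told apart.

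**Figure D1:**
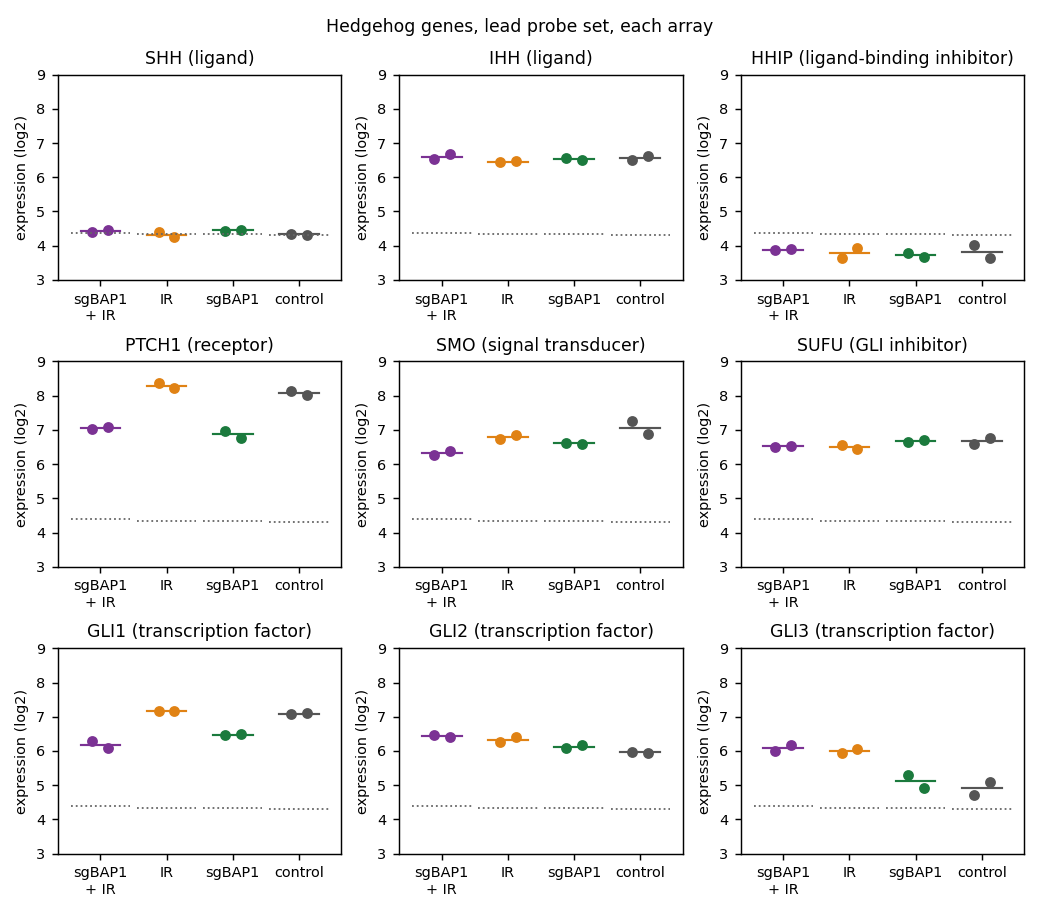
Log2 RMA signal of the lead probe set of each of the 9 genes on every array, with a point per array, a bar at the mean of each group of 2 arrays, a dotted line at the lower quartile of all probe sets (group mean), and the groups sgBAP1 + IR, IR, sgBAP1 and control from left to right. PTCH1 lay between 6.77 and 7.09 on the 4 arrays with the BAP1 guide and between 8.03 and 8.37 on the 4 without it, and GLI3 lay between 5.94 and 6.17 on the 4 irradiated arrays and between 4.72 and 5.30 on the others.

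The ligands had no call in any comparison. SHH, Sonic hedgehog, is the ligand made by many pancreatic cancers and had a single probe set, which read 4.39 and 4.45 log2 on sgBAP1 + IR arrays, 4.39 and 4.26 on IR arrays, 4.44 and 4.45 on sgBAP1 arrays, and 4.34 and 4.32 on control arrays. It was below the lower quartile of all probe sets on 3 of the 8 arrays, and all its values lay within 4.26 and 4.45 log2. The difference from control was 0.09 ± 0.06 log2 with the guide and radiation, -0.01 ± 0.06 log2 with radiation alone, and 0.115 ± 0.06 log2 with the guide alone, and the arrays with the guide did not overlap the control arrays. IHH, Indian hedgehog, best known from bone growth and the gut, read 6.52 and 6.67 log2 in sgBAP1 + IR cells, 6.44 and 6.47 in IR cells, 6.55 and 6.50 in sgBAP1 cells, and 6.49 and 6.62 in control cells. Its groups overlapped except for IR, whose 2 arrays were just below the rest, 0.10 ± 0.07 log2 below control on average. The second IHH probe set differed from control by -0.06 to 0.15 log2 over the 3 treated groups.

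PTCH1, the ligand receptor and brake on SMO, read 7.03 and 7.09 log2 on sgBAP1 + IR arrays, 8.37 and 8.22 on IR arrays, 6.96 and 6.77 on sgBAP1 arrays, and 8.13 and 8.03 on control arrays. The order of the group means was IR, control, sgBAP1 + IR and sgBAP1, from high to low, and no neighbours in that order overlapped. The step between control and sgBAP1 + IR was 1.02 log2, whereas the other steps were 0.21 and 0.19 log2. The guide thus went with a 2.36-fold lower level in irradiated cells (-1.24 ± 0.09 log2) and a 2.32-fold lower level in cells without radiation (-1.21 ± 0.09 log2). Radiation went with differences of 0.21 ± 0.09 log2 in cells without the guide and 0.19 ± 0.09 log2 in cells with it. The interaction, which is the radiation effect with the guide minus that without it, was -0.03 ± 0.12 log2.

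A second PTCH1 probe set, whose name ending marks that some of its probes may also match other transcripts, gave the same order of guide and no-guide arrays. It read 6.79 and 6.85 log2 on sgBAP1 + IR arrays, 8.24 and 8.22 on IR arrays, 6.84 and 6.79 on sgBAP1 arrays, and 8.21 and 7.88 on control arrays. Its guide differences were -1.41 ± 0.10 log2 in irradiated cells and -1.23 ± 0.10 log2 in cells without radiation. The third PTCH1 probe set lay close to the lower quartile. It read 4.53 and 4.40 log2 on sgBAP1 + IR arrays and 4.60 and 4.80 on IR arrays. On sgBAP1 arrays it read 4.54 and 4.32, and on control arrays 4.48 and 4.74. Its group means ran in the order of the lead probe set, but arrays with and without the guide overlapped. The guide went with -0.24 ± 0.12 log2 in irradiated cells and -0.18 ± 0.12 log2 in cells without radiation, neither of them called. The other 2 PTCH1 probe sets were below the lower quartile on all 8 arrays. Probe sets of 1 gene can measure different transcript ends, and which PTCH1 transcripts each of these matched was not analysed here.

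HHIP, a membrane protein that binds Hedgehog ligands and keeps them from PTCH1, had 3 probe sets, all below the lower quartile on all 8 arrays. The lead probe set read 3.87 and 3.90 log2 on sgBAP1 + IR arrays, 3.64 and 3.94 on IR arrays, 3.78 and 3.66 on sgBAP1 arrays, and 4.02 and 3.64 on control arrays. Groups next to each other in rank overlapped, and the sgBAP1 + IR arrays were above the sgBAP1 arrays by 0.16 ± 0.14 log2. At this dim signal no HHIP difference was called.

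SMO, the transducer that PTCH1 restrains, read 6.26 and 6.37 log2 in sgBAP1 + IR cells, 6.72 and 6.85 in IR cells, 6.63 and 6.59 in sgBAP1 cells, and 7.25 and 6.88 in control cells. The group means ran from control through IR and sgBAP1 to sgBAP1 + IR, from high to low, and no neighbours overlapped. The control arrays lay farther apart than those of the other SMO groups. The difference of -0.75 ± 0.12 log2 with both guide and radiation was called, but became -0.56 log2, under the fold limit, without control replicate 1. With the guide alone the difference was -0.45 ± 0.12 log2 and was not called, but became -0.64 log2 and was called without control replicate 2. The second SMO probe set read 5.71 and 5.41 log2 on sgBAP1 + IR arrays, 5.86 and 5.97 on IR arrays, 5.50 and 5.56 on sgBAP1 arrays, and 5.84 and 5.92 on control arrays. It was lower with the guide, by 0.32 to 0.36 log2 in the 3 comparisons that involve the guide, and differed by 0.03 log2 between IR and control.

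**Figure D2:**
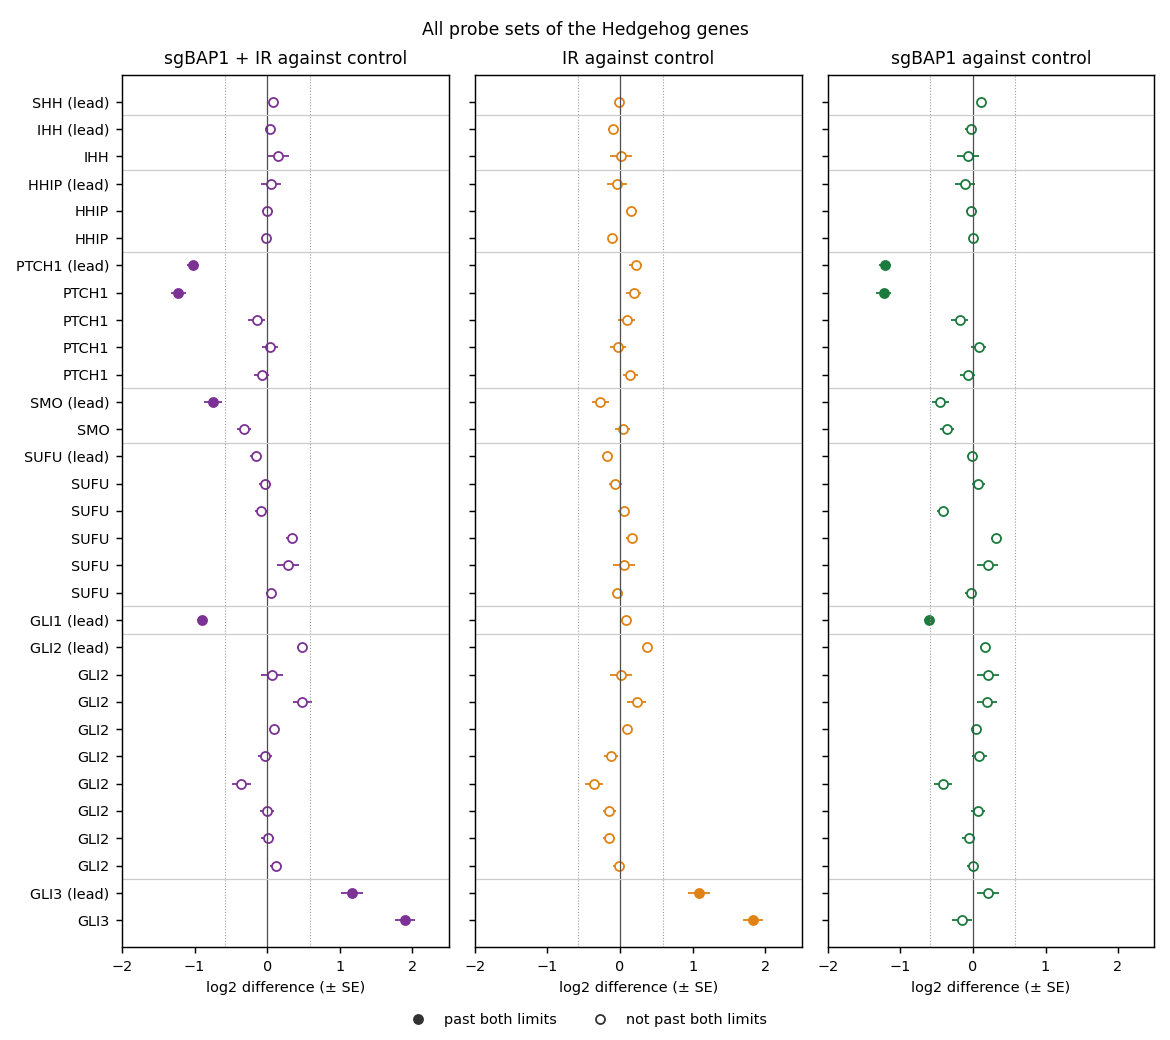
Log2 difference from control of all 31 probe sets of the 9 genes, with bars of ± 1 limma standard error, for sgBAP1 + IR, IR and sgBAP1 from left to right; filled points passed both limits and dotted lines mark the 1.5-fold limit. A pair of PTCH1 probe sets lay between -1.02 and -1.23 log2 in both guide groups, while the other 3 lay between -0.18 and 0.08 log2. Both GLI3 probe sets lay above 1 log2 in both irradiated groups.

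SUFU, the cytoplasmic inhibitor of the GLI proteins, read 6.51 and 6.52 log2 on sgBAP1 + IR arrays, 6.56 and 6.44 on IR arrays, 6.64 and 6.69 on sgBAP1 arrays, and 6.59 and 6.76 on control arrays. The irradiated arrays were lower than the arrays without radiation by 0.15 to 0.17 log2 with an SE of 0.07, in cells with and without the guide. Its 5 other probe sets went both ways, with differences between -0.08 and 0.34 log2 for sgBAP1 + IR against control and between -0.42 and 0.32 log2 for sgBAP1 against control. None of the 6 SUFU probe sets was called in any comparison.

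GLI1, the GLI factor that acts only as an activator and is itself a GLI target, had a single probe set. It read 6.29 and 6.08 log2 on sgBAP1 + IR arrays, 7.17 and 7.16 on IR arrays, 6.47 and 6.49 on sgBAP1 arrays, and 7.07 and 7.10 on control arrays. No groups overlapped, and sgBAP1 + IR was the lowest. The guide went with a 1.97-fold lower level in irradiated cells (-0.98 ± 0.07 log2) and a 1.52-fold lower level in cells without radiation (-0.61 ± 0.07 log2), the second of which was just past the fold limit and fell under it, at -0.58 log2, after a further quantile normalisation. Radiation went with 0.08 ± 0.07 log2 in cells without the guide and -0.29 ± 0.07 log2 in cells with it. The interaction of -0.37 ± 0.10 log2 was the widest among the lead probe sets of the 9 genes, and it did not pass both limits.

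GLI2, the main activator downstream of SMO in vertebrates, read 6.45 and 6.41 log2 on sgBAP1 + IR arrays, 6.26 and 6.41 on IR arrays, 6.08 and 6.16 on sgBAP1 arrays, and 5.96 and 5.95 on control arrays. The 4 irradiated arrays were above the 4 others, and the sgBAP1 arrays were above the control arrays. Radiation went with 0.38 ± 0.07 log2 in cells without the guide and 0.31 ± 0.07 log2 in cells with it, both under the fold limit. Of all 9 GLI2 probe sets, 4 were higher in IR than in control and 6 in sgBAP1 + IR than in sgBAP1. The 8 other GLI2 probe sets had means between 3.10 and 4.82 log2, and 4 of them were below the lower quartile on all 8 arrays. The differences of these 8 from control ranged between -0.35 and 0.48 log2 for sgBAP1 + IR, between -0.35 and 0.23 log2 for IR, and between -0.41 and 0.21 log2 for sgBAP1. Of these, 1 was called higher in sgBAP1 + IR than in control without control replicate 1 (0.66 log2) or sgBAP1 + IR replicate 1 (0.60 log2), and 1 was called lower in sgBAP1 than in control without sgBAP1 replicate 1 (-0.61 log2).

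GLI3, which acts mostly as a repressor when the pathway is off, read 5.99 and 6.17 log2 on sgBAP1 + IR arrays, 5.94 and 6.05 on IR arrays, 5.30 and 4.93 on sgBAP1 arrays, and 4.72 and 5.09 on control arrays. The irradiated groups overlapped with each other, as did the groups without radiation, and no irradiated array was as low as any array without radiation. Against control the level was 2.12-fold higher in IR cells (1.09 ± 0.16 log2) and 2.25-fold higher in sgBAP1 + IR cells (1.17 ± 0.16 log2). Within guide cells, radiation went with a 1.95-fold higher level (0.96 ± 0.16 log2). The guide went with 0.08 ± 0.16 log2 in irradiated cells and 0.21 ± 0.16 log2 in cells without radiation, and the interaction was -0.12 ± 0.22 log2.

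The second GLI3 probe set was also higher on the irradiated arrays, while its sgBAP1 mean was below its control mean, with 6.004 and 6.29 log2 on sgBAP1 + IR arrays, 5.999 and 6.15 on IR arrays, 3.92 and 4.26 on sgBAP1 arrays, and 4.16 and 4.33 on control arrays. On the 4 arrays without radiation it was below the lower quartile of all probe sets, where RMA signals are compressed, so no fold is given. Its signal differed by 1.83 ± 0.14 log2 between IR and control and by 2.06 ± 0.14 log2 between sgBAP1 + IR and sgBAP1, which are differences from dim signals and not sizes of a change in RNA.

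Over the 31 probe sets, the members were called as follows, each beside the share of all probe sets called in that comparison. For sgBAP1 + IR against control 6 were called, 2 higher and 4 lower, where 7.19% of all probe sets were. For IR against control 2 were called, both GLI3, where 3.05% were. For sgBAP1 against control 3 were called, those of PTCH1 and GLI1, where 4.68% were. Within guide cells, radiation gave 2 calls (3.09% of all) and within irradiated cells the guide gave 3 (1.81% of all). The interaction gave 0 calls among the members and 0.442% among all probe sets. Of the 31 probe sets, 9 were below the lower quartile on all 8 arrays and 16 on none. Their median difference was 0.01 log2 for sgBAP1 + IR, 0.02 for IR and -0.02 for sgBAP1 against control, beside 0.02, 0.00 and 0.00 log2 over all probe sets.

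Counted by lead probe set, 4 of the 9 genes were called in sgBAP1 + IR against control (PTCH1, GLI1 and SMO lower, GLI3 higher), beside 8.01% of all 18132 genes. GLI3 was the 1 gene called in IR against control (3.58% of all genes) and in sgBAP1 + IR against sgBAP1 (3.19%). PTCH1 and GLI1 were the 2 genes called in sgBAP1 against control (4.94% of all genes) and in sgBAP1 + IR against IR (2.12%). The interaction called 0 of the 9 and 0.463% of all genes. With the methods' t-test, fitted to 1 probe set at a time with 2 arrays a group, the lead GLI3 probe set lost its call in all 3 comparisons where it had one, GLI1 lost its in sgBAP1 + IR against control and against IR, and SMO lost its in sgBAP1 + IR against control, while the lead PTCH1 probe set kept its 3 calls.

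The guide effect was measured on separate arrays with radiation (sgBAP1 + IR against IR) and without it (sgBAP1 against control), so both can be set side by side. The 3 member probe sets called in irradiated cells were the 3 called in cells without radiation. Over all probe sets, 608 were called in both, which is 68.2% of the 892 called in irradiated cells and 26.4% of the 2306 called in cells without radiation. Member probe sets had the same sign in both for 22 of 31 (71%), close to the 70% of all probe sets. The radiation effect was likewise measured on separate arrays with and without the guide. The same 2 GLI3 probe sets were called in both, the sign was shared by 22 of 31 member probe sets (71%) and by 66% of all, and 802 of all probe sets were called in both, 52.6% of the 1525 with the guide and 53.4% of the 1503 without it.

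**Figure D3:**
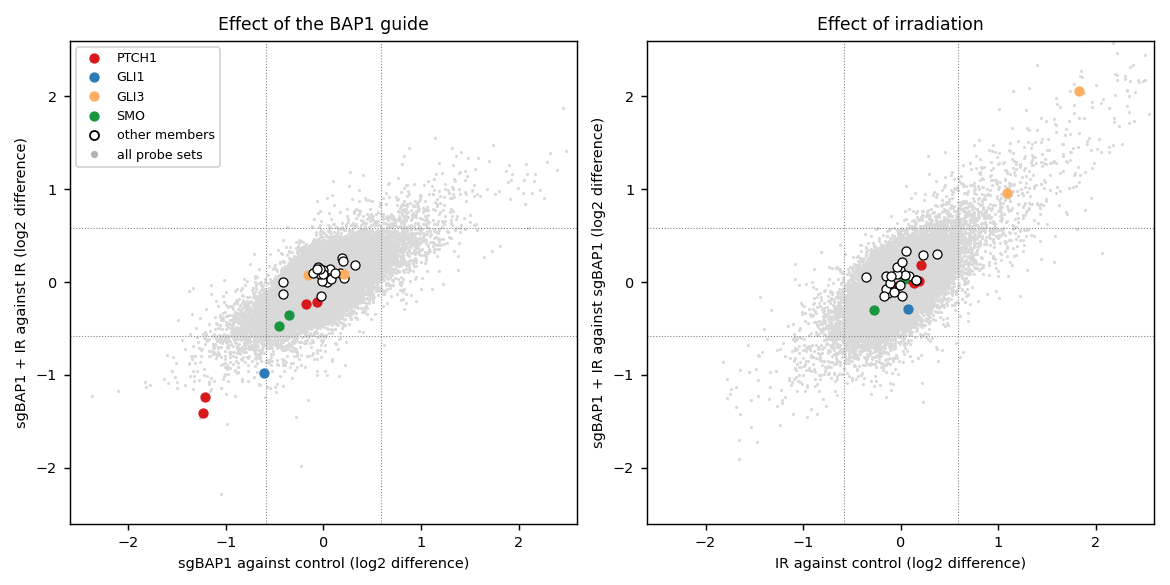
Log2 differences measured on separate arrays, with the guide effect on the left (sgBAP1 + IR minus IR on the vertical axis, sgBAP1 minus control on the horizontal) and the radiation effect on the right (sgBAP1 + IR minus sgBAP1 on the vertical axis, IR minus control on the horizontal); grey points are all probe sets, coloured and open points the 31 probe sets of the 9 genes, and dotted lines mark the 1.5-fold limit. A pair of PTCH1 probe sets and that of GLI1 lay beyond the lower limit on both axes of the guide panel and both GLI3 probe sets beyond the upper limit on both axes of the radiation panel, while 33 probe sets, none of a member, lay outside the radiation panel.

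By Pearson correlation over the 8 arrays, PTCH1 was most like EFHD1, DOCK1 and FAM162A (r = 0.994 each), PLCE1 (0.993) and FAM210B (0.990), among 2201 genes with a mean of at least 5 log2 and a range of group means over 1.5-fold. EFHD1, for one, had guide differences of -1.14 log2 in irradiated cells and -1.05 log2 in cells without radiation. Arrays of a group share their treatment, so these values describe a shared group order and carry no p-value. Within the pathway, PTCH1 correlated at 0.92 with GLI1, 0.71 with SMO and 0.03 with GLI3. Among the other pathway genes that met the same limits, the extremes were 0.88 with IFT172 and -0.91 with SNAI1. The rest lay between -0.54 for FST and 0.64 for IFT88.

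A further 47 genes of the pathway, listed by role, were analysed. Of these 47, 8 passed both limits in sgBAP1 + IR against control (8.01% of all genes did), 3 in IR against control (3.58%), 1 in sgBAP1 against control (4.94%), 3 in sgBAP1 + IR against sgBAP1 (3.19%) and 1 in sgBAP1 + IR against IR (2.12%). In the interaction 0 passed both limits (0.463% of all genes did). Their median differences from control were 0.02 log2 for sgBAP1 + IR, 0.03 for IR and -0.07 for sgBAP1, beside 0.03, 0.00 and 0.00 log2 over all genes. The p-values below are from limma, adjusted over all probe sets. These gene lists too were chosen with earlier results of these data known, so the p-values describe single genes and no list was tested. With the methods' t-test, IFT172 lost each of its calls, FST and SNAI1 theirs in sgBAP1 + IR against control, and GPR161 and FOXL1 theirs in sgBAP1 + IR against sgBAP1.

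Around the ligands, 1 of 4 genes was called higher in sgBAP1 + IR against control, where 657 of all 18132 genes were. DISP1, the transporter that releases the lipid-modified ligand from the cell, read 6.20 and 6.22 log2 in sgBAP1 + IR cells, 6.07 and 6.001 in IR cells, 5.79 and 5.85 in sgBAP1 cells, and 5.60 and 5.57 in control cells. It rose by 0.63 ± 0.05 log2 in sgBAP1 + IR cells against control (adjusted p = 0.000218), while its 2 other probe sets, at 0.01 and 0.08 log2, did not pass. The co-receptors BOC, CDON and GAS1, which present ligand to PTCH1, gave 0 of 3 calls in any comparison with control.

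Among 16 intracellular regulators, 1 was called lower in sgBAP1 + IR and in IR against control. Over all 18132 genes, 796 and 251 were called lower in these comparisons. GPR161, a receptor of the cilium that sustains protein kinase A activity and so restrains the pathway, read 6.38 and 6.55 log2 in sgBAP1 + IR cells, 6.45 and 6.49 in IR cells, 7.15 and 6.97 in sgBAP1 cells, and 7.58 and 7.56 in control cells. It fell by 1.10 ± 0.08 log2 in sgBAP1 + IR cells (adjusted p = 0.000113) and by 1.10 ± 0.08 log2 in IR cells (adjusted p = 0.00028), each against control, and its 2 other probe sets were called lower in both. Within guide cells the difference between sgBAP1 + IR and sgBAP1 was -0.60 ± 0.08 log2 (adjusted p = 0.00328), which was under the fold limit at -0.51 log2 without sgBAP1 replicate 1 or sgBAP1 + IR replicate 1. The guide difference was -0.01 ± 0.08 log2 in irradiated cells and -0.51 ± 0.08 log2 in cells without radiation (adjusted p = 0.00405), the second under the fold limit and past it without sgBAP1 replicate 1 (-0.59 log2). The interaction was 0.50 ± 0.12 log2 (adjusted p = 0.105).

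Of the 11 genes of the primary cilium, 3 fell in sgBAP1 + IR against control, all of them parts of intraflagellar transport, which carries cargo along the cilium. Over all genes, 796 of 18132 were called lower there. In sgBAP1 + IR and in sgBAP1, 10 of the 11 were below 0 against control, with medians of -0.19 and -0.21 log2, beside 0.03 and 0.00 log2 over all genes, and both comparisons share the control arrays. Over all 18132 genes, 7957 and 9025 were below 0 in these comparisons. In sgBAP1 + IR against IR, on other arrays than sgBAP1 against control, 10 of the 11 were below 0 with a median of -0.11 log2, beside 0.03 log2 over all genes. IFT88 read 6.83 and 6.89 log2 in sgBAP1 + IR cells, 7.42 and 7.45 in IR cells, 7.40 and 7.33 in sgBAP1 cells, and 7.92 and 7.83 in control cells. It fell by 1.02 ± 0.06 log2 in sgBAP1 + IR cells against control (adjusted p = 4.39e-05), and the single treatments stayed under the fold limit at -0.44 log2 for IR and -0.51 log2 for sgBAP1. Of its 2 other probe sets, 1 was called lower too.

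IFT172 followed the guide rather than radiation in the order of its groups, with 5.84 and 5.59 log2 on sgBAP1 + IR arrays, 6.43 and 6.32 on IR arrays, 5.74 and 5.89 on sgBAP1 arrays, and 6.59 and 6.68 on control arrays. It fell by 0.82 ± 0.10 log2 in sgBAP1 cells (adjusted p = 0.00119) and by 0.92 ± 0.10 log2 in sgBAP1 + IR cells (adjusted p = 0.0005) against control. In irradiated cells the guide difference was -0.66 ± 0.10 log2 (adjusted p = 0.00659), and the call was lost without IR replicate 1 (-0.60 log2, adjusted p = 0.0501) or sgBAP1 + IR replicate 2 (-0.53 log2). Its 3 other probe sets were not called in any of these comparisons. They ranged between -0.13 and 0.25 log2 for sgBAP1 + IR against control, between -0.16 and 0.03 log2 for sgBAP1 against control, and between -0.07 and 0.28 log2 for sgBAP1 + IR against IR, where 1 of the 3 had the sign of the lead probe set. IFT27 fell by 0.77 ± 0.07 log2 in IR cells (adjusted p = 0.000743) and by 0.82 ± 0.07 log2 in sgBAP1 + IR cells (adjusted p = 0.000231), with 8.85 and 8.94 log2 on sgBAP1 + IR arrays, 8.97 and 8.92 on IR arrays, 9.44 and 9.31 on sgBAP1 arrays, and 9.77 and 9.65 on control arrays.

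**Figure D4:**
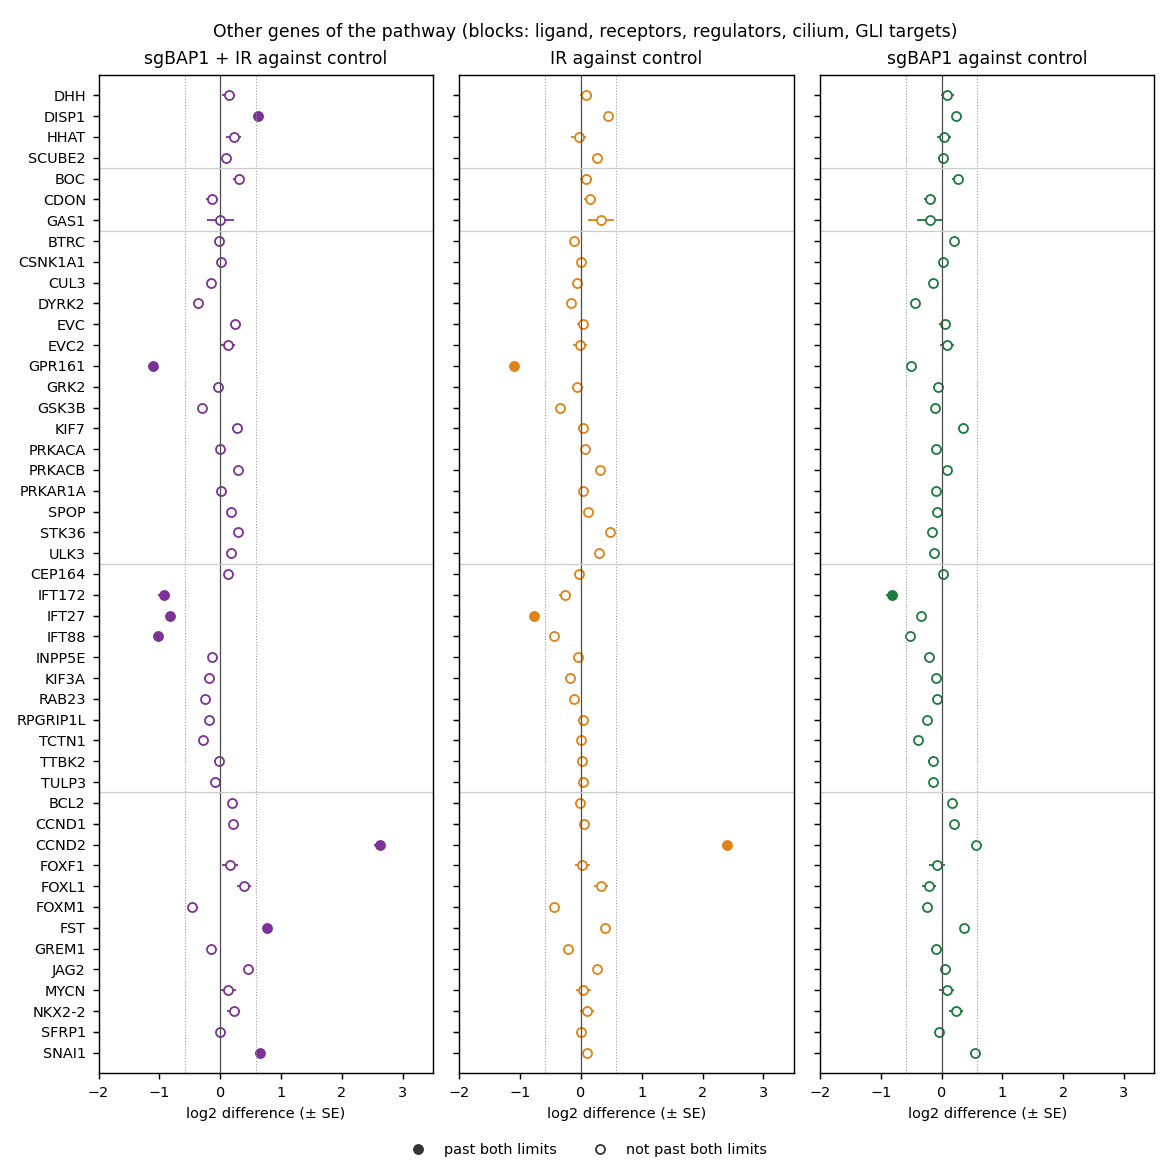
Log2 difference from control of the lead probe sets of 47 other pathway genes, in blocks by role from top to bottom (ligand, receptors, regulators, cilium, GLI targets), with bars of ± 1 limma standard error, for sgBAP1 + IR, IR and sgBAP1 from left to right; filled points passed both limits. Filled points number 8, 3 and 1 in the 3 panels, and CCND2, at 2.62 and 2.40 log2 in the irradiated groups, is set against control arrays with a signal below the lower quartile.

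Of 13 genes reported elsewhere as GLI targets, 3 were called higher in sgBAP1 + IR against control and 0 lower. Over all 18132 genes, 657 were called higher and 796 lower there. Of the targets among the members, PTCH1 and GLI1 were lower there, and HHIP, below the lower quartile on all 8 arrays, differed by 0.05 ± 0.14 log2. CCND2, a D-type cyclin, read 5.98 and 6.22 log2 on sgBAP1 + IR arrays, 5.87 and 5.88 on IR arrays, 4.09 and 3.998 on sgBAP1 arrays, and 3.52 and 3.43 on control arrays. Its signal differed from control by 2.62 ± 0.09 log2 in sgBAP1 + IR cells (adjusted p = 6.26e-06) and by 2.40 ± 0.09 log2 in IR cells (adjusted p = 1.56e-05). The 4 arrays without radiation were below the lower quartile, so these are differences from dim signals, not sizes of a change in RNA, and no fold is given. The 2 other CCND2 probe sets moved by 0.20 to 0.41 log2 in sgBAP1 + IR cells without a call. FST, follistatin, which binds activins, read 7.44 and 7.60 log2 in sgBAP1 + IR cells, 7.12 and 7.18 in IR cells, 7.08 and 7.14 in sgBAP1 cells, and 6.71 and 6.78 in control cells. It rose by 0.78 ± 0.07 log2 in sgBAP1 + IR cells (adjusted p = 0.000237), and both its other probe sets were called higher, by 0.61 and 1.38 log2.

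SNAI1, a repressor of epithelial genes, was higher on all arrays with the guide, where PTCH1 was lower. It read 6.94 and 6.93 log2 on sgBAP1 + IR arrays and 6.37 and 6.42 on IR arrays. On sgBAP1 arrays it read 6.92 and 6.76, and on control arrays 6.19 and 6.38. It rose by 0.65 ± 0.08 log2 in sgBAP1 + IR cells against control (adjusted p = 0.00105), a call that was lost without control replicate 1 (0.56 log2). With the guide alone its difference was 0.55 ± 0.08 log2, under the fold limit, and was past it without control replicate 2 (0.65 log2) or sgBAP1 replicate 2 (0.63 log2). Within guide cells CCND2 and FOXL1, a forkhead factor, were called higher with radiation. FOXL1, which is named because of its values and not by the rule, differed by 0.60 ± 0.11 log2 there (adjusted p = 0.0117), and lost its call after a further quantile normalisation or median-centring (0.58 log2 each) and without sgBAP1 replicate 2 (0.47 log2) or sgBAP1 + IR replicate 1 (0.58 log2).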

How the data were processed

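Total RNA of PANC1 cells was hybridised to 8 PrimeView 3′ arrays. The authors background-corrected, quantile-normalised and summarised the probes by RMA, and the deposited values are log2 signals for 49395 probe sets, of which 102 controls were left out. RMA narrows differences of dim probe sets. Symbols came from the platform annotation, which gave 44988 probe sets a single symbol, 1832 several and 2473 none. Each probe set was fitted as 4 group means over 8 arrays with limma 3.58.1 in R 4.3.3, with 4 residual and 3.22 prior degrees of freedom, and Benjamini-Hochberg adjustment over 49293 probe sets. Arrays sharing a group had a median SD of 0.0787 log2 per probe set. The script was tested on simulated data. No source says whether both arrays in a group were separate cultures, so p-values measure the spread between these arrays, and their number limits the precision.

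The members and gene lists were chosen with earlier results of these data known. Every member probe set was accounted for, and other pathway genes were named where their lead probe set was called in a comparison with control. Motifs and loci came from RefSeq on GRCh38.p14. Alternatives were the methods' threshold (p under 0.01), their t-test, no fold limit, 2 other scalings, a filter on means under 5 log2, only the compared groups, the mean of a gene's probe sets, and each array left out in turn.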

Additional observations from a re-analysis of the deposited data

How the results depend on the processing

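Over the lead probe sets of the 9 genes, 345 alternative values moved by less than 1 SD between arrays, 60 by more, and 0 changed the sign of a called difference. Without the fold limit, the member probe sets called were 10 for sgBAP1 + IR against control (6 as reported), 8 for sgBAP1 against control (3) and 5 for sgBAP1 + IR against sgBAP1 (2), and other pathway genes were 20 (8), 16 (1) and 14 (3), with 12 (3) for IR against control and 5 (1) for sgBAP1 + IR against IR. With the methods' t-test, members called were 2, 1 for IR against control, and 0 for sgBAP1 + IR against sgBAP1, and other pathway genes 5 for sgBAP1 + IR, 0 for sgBAP1, 1 for sgBAP1 + IR against sgBAP1 and 0 for sgBAP1 + IR against IR. With that test adjusted, 0 members and 0 other pathway genes were called in any comparison. Averaging a gene's probe sets left 0 other pathway genes in sgBAP1 against control and in sgBAP1 + IR against IR. Leaving out 1 array gave 2 to 3 other pathway genes in sgBAP1 against control and 1 to 3 in sgBAP1 + IR against sgBAP1, the lowest without sgBAP1 + IR replicate 1. CCND2 was not tested under the filter on dim probe sets. The cause of these shifts was not tested, apart from the fold limit, which removes calls by construction.

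Over all probe sets, in the order sgBAP1 + IR, IR and sgBAP1 against control, then sgBAP1 + IR against sgBAP1 and against IR, no fold limit gave 16434, 8555, 12790, 9358 and 7837 calls, the t-test 1971, 843, 1339, 799 and 474, and the adjusted t-test 150, 0, 34, 2 and 0, against 3546, 1503, 2306, 1525 and 892. The interaction, with 218 calls, had 484 at the methods' threshold, 357 with the dim filter and 0 without any 1 array. The t-test and the fit of 2 groups could not be made for the interaction. No paired analysis was possible because array titles carry letters and no replicate number that groups share.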
